A study of Mus musculus with 24 samples.

Results

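Lipofuscin-low microglia that lacked Grn were compared with lipofuscin-low wild-type microglia across all genes. The members were the 12 libraries titled as the low bin, 6 of genotype GrnKO and 6 of genotype WT, out of 24 libraries in the series. GrnKO low libraries came from 6 Grn-/- mice (animals 2, 4, 6, 8, 10 and 12) and WT low libraries from 6 Grn+/+ mice (animals 1, 3, 5, 7, 9 and 11). All mice were 19 months old, were on a C57Bl/6J background and carried the hTfRmu/hu knock-in, a humanized transferrin receptor allele, so both groups share that allele. Per the labels' protocols, brains were dissociated with actinomycin D and anisomycin present, live Cd11b+/CD45+ cells were sorted by autofluorescence in the 488 channel, and 1000 cells of the low bin made 1 library. Cd11b and CD45 also mark other myeloid cells, the knockout is of the animal rather than of microglia alone, and no source used here states the limits of the low gate. The same animals gave the libraries of the high bin (GrnKO high and WT high, 6 each), which are used below for comparison. Each genotype had 3 animals labelled male and 3 labelled female.

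Grn encodes progranulin, a secreted glycoprotein that is carried into lysosomes and cut there into granulins. Lysosomes are the acidic compartments where proteases such as cathepsins, glycosidases and lipid-handling proteins break down material taken up by the cell, and lipofuscin is the autofluorescent residue that they fail to clear. Microglia are the resident macrophages of the brain, and in degenerating or ageing tissue they can take on a disease-associated state in which lysosomal, lipid-handling and secreted proteins are raised. Transcription factors of the TFE family, which drive many lysosomal genes, bind a core that contains CACGTG.

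The promoters below are shown because they carry that core or, for Grn, a related element, and because they belong to a lysosomal protease and a peroxidase that rose and to the deleted gene. Each run is the 250 bases before the start site in the RefSeq promoter table of build GRCm38.p6, on the strand of the gene, and the capitals mark CACGTG in Ctsd and Prdx4 and TCACATGA in Grn.
Ctsd: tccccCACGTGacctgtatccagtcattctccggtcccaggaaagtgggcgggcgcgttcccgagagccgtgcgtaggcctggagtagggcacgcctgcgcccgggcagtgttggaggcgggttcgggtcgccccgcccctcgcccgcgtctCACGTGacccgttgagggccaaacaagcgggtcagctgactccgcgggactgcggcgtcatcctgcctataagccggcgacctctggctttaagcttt
Prdx4: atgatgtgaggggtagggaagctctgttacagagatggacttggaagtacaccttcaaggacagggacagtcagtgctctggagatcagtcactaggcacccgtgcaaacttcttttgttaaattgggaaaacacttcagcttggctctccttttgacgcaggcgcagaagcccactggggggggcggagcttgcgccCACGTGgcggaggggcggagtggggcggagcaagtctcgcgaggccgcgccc
Grn: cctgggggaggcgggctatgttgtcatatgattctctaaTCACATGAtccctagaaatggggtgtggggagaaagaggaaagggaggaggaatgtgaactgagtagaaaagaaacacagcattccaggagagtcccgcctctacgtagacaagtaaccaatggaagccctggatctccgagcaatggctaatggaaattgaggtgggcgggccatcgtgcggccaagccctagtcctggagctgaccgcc
The Ctsd run lies at chr7:142387828-142388077 on the minus strand, the Prdx4 run at chrX:155338461-155338710 on the minus strand and the Grn run at chr11:102430257-102430506 on the plus strand. CACGTG stood at -245 and -98 from the Ctsd start and at -52 from the Prdx4 start, and TCACATGA stood at -211 from the Grn start. Over windows of 300 bases (250 before to 50 after the start, both strands), CACGTG was found in 3 of the 31 risen genes with a window (Ctsd, Prdx4 and Rptoros), or 9.68%, against 1199 of 10301 tested genes, or 11.6%. The antioxidant element core TGANNNNGC was found in 13 of those 31 windows (41.9%), against 47.8% of all. TCACATGA was found in 98 of 10301 windows (0.951%), and the window of Gpnmb held 1 TGACTCA, at 8 bases past the start, which 4.42% of all windows held. These shares lay near those of all tested genes, and a match of letters is only a description of the window.

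The 12 low libraries held 20.3 to 46.3 M counts in GrnKO low and 12.9 to 38.4 M counts in WT low. Between 11602 and 12918 genes had at least 10 counts in GrnKO low libraries, against 10978 to 12978 in WT low libraries. The 12 microglia markers were all detected, with a summed level of 35732 to 45673 CPM (counts scaled to library size) in GrnKO low, against 35058 to 43958 CPM in 5 of the WT low libraries and 17423 CPM in WT animal 1. That WT library also had 9.70% of its counts in mitochondrially encoded genes, against 1.46 to 2.39% in GrnKO low and 1.79 to 2.96% in the other WT low libraries, and it had the highest WT low sums of astrocyte, oligodendrocyte and endothelial markers. It was the lowest WT low library for 20 of the 38 genes that rose, so values without animal 1 are given beside the results it moves. The sex labels went against Xist and the 4 Y-linked genes measured: low libraries labelled male had 701 to 2273 CPM of Xist and a Y-linked sum of 0.275 to 0.726 CPM, while those labelled female had 1.01 to 2.21 CPM of Xist and a Y-linked sum of 63.1 to 119 CPM. The words labelled male and labelled female are therefore used for the labels alone.

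Grn itself was measured first, as a check of the genotype labels. Its level was 0.645 CPM at the lowest, 3.74 at the median and 20.3 CPM at the highest in GrnKO low, against 439, 620 and 805 CPM in WT low. Every GrnKO low library lay below every WT low library, and animal 4 was the highest knockout with 460 counts, against at least 5800 counts in any WT low library. The log2 fold change was -6.78 (standard error 0.919, edgeR quasi-likelihood test, Benjamini-Hochberg adjusted p = 0.000576). None of the 20 nearest tested genes on either side of Grn in RefSeq order on chromosome 11 passed the test and none had separate groups. The smallest p among them was that of Gjc1, a gap junction gene with a median of 0 CPM in GrnKO low and 0.51 CPM in WT low (edgeR unadjusted p = 0.0249, adjusted p = 0.377).

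Across 14090 tested genes, 46 passed an adjusted p of 0.05, which is 0.326% of those tested, and 1437 (10.2%) had an unadjusted p under 0.05. Of these, 38 were higher in GrnKO low (0.27%) and 8 were lower (0.0568%), Grn included. With library size alone as the scaling, 29 were higher and 19 lower, and the median log2 fold change of tested genes of at least 10 CPM was -0.16 rather than -0.03. The change was at least 2-fold for 28 of the risen genes and 5 of the fallen genes. Every GrnKO low library was above every WT low library for 109 genes (0.774% of those tested) and below every WT low library for 54 (0.383%). Among the called genes this held for 32 of the 38 that rose and 6 of the 8 that fell. The risen genes together took 8.82 to 12.1% of all counts in GrnKO low libraries, against 3.74 to 5.85% in WT low libraries. Without animal 1 the count of called genes was 116 (0.809% of 14346 tested), with 92 higher (0.641%) and 24 lower (0.167%), and 45 of the 46 were among them, the exception being Creg2. Without animal 4 the count was 30, of which 29 were among the 46. A fit to the 12 low libraries alone called 21 genes, all among the 46: Akr1a1, Apoe, Cd63, Cox6a2, Cst7, Ctsb, Ctsd, Fabp5, Fth1, Ftl1-ps1, Gpnmb, Gpx3, Grn, Igf1, Lgals3, Pkm, Prdx4, Spp1, Syngr1, Timp2 and Tyrobp. In bulk libraries of sorted cells, fewer cells of a type and less RNA per cell cannot be told apart.

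The smallest adjusted p belonged to Gpnmb, which encodes a transmembrane glycoprotein of lysosomes and melanosomes that lipid-laden macrophages are known to express. Its level was 169, 244 and 514 CPM (lowest, median and highest) in GrnKO low, against 0.521, 1.42 and 3.36 CPM in WT low. Animal 2 was the highest knockout, the other 5 lay between 169 and 252 CPM, and no WT low library came within a factor of 10 of them. The log2 fold change was 7.36 (standard error 0.454, edgeR adjusted p = 5.6e-11), and the raw estimates were 3900 to 11000 counts in GrnKO low, against 11 to 97 counts in WT low.

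**Figure D1:**
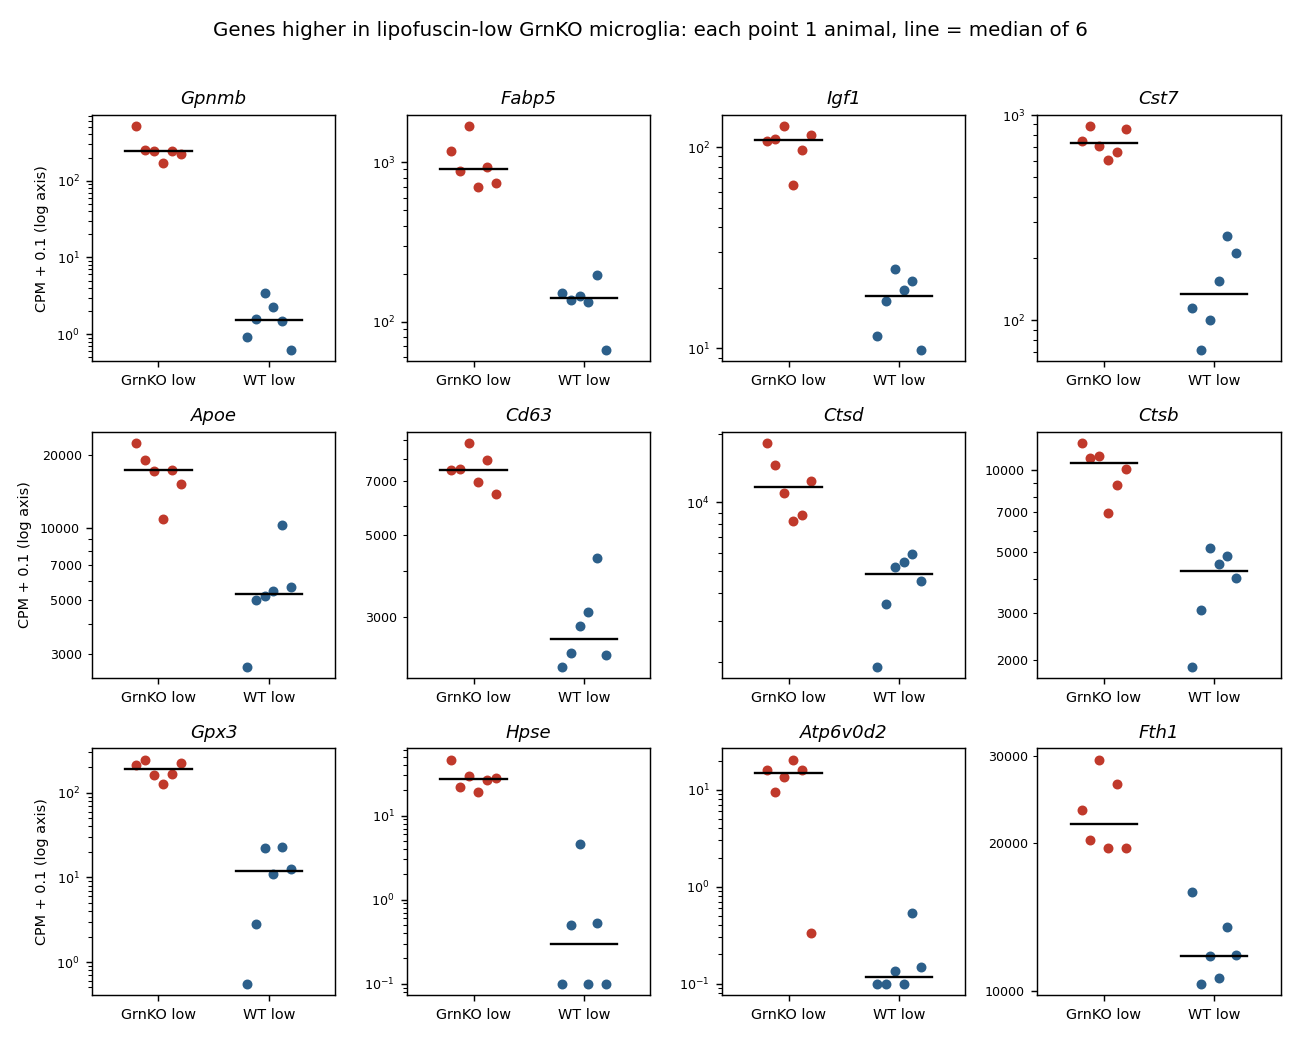
Levels of 12 genes that rose in lipofuscin-low GrnKO microglia. Each point is 1 animal (n = 6 per group), the vertical axis is CPM + 0.1 on a log scale and the black line is the group median; the groups are separate in every panel except Atp6v0d2, where animal 12 of GrnKO low (0.23 CPM) lies beside the highest WT low library (0.432 CPM).

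Several risen genes encode proteases of the lysosome and proteins that act on them. Ctsd encodes cathepsin D, the main aspartic protease of lysosomes, and its level was 8236, 11689 and 18218 CPM in GrnKO low, against 1894, 4843 and 5939 CPM in WT low. Ctsb, the cysteine protease cathepsin B, had 6936, 10592 and 12613 CPM in GrnKO low, against 1894, 4266 and 5189 CPM in WT low. Neither gene's groups overlapped, and WT animal 1 was the lowest library for both. The log2 fold changes were 1.46 for Ctsd (standard error 0.264, edgeR adjusted p = 0.00577) and 1.37 for Ctsb (standard error 0.225, edgeR adjusted p = 0.00205). Cst7 encodes cystatin F, an inhibitor of cysteine cathepsins made by myeloid cells. Its level was 607, 728 and 884 CPM in GrnKO low, against 71.4, 134 and 256 CPM in WT low, with no overlap (log2 fold change 2.30, standard error 0.259, edgeR adjusted p = 6.32e-06). Ctso, a little-studied cysteine cathepsin, went the other way at 48.6, 73.8 and 79.7 CPM in GrnKO low, against 92.9, 132 and 168 CPM in WT low. The fall of Ctso was also free of overlap (log2 fold change -0.94, edgeR adjusted p = 0.0237), and its call was lost without any of animals 2, 4, 5, 6, 11 and 12 (adjusted p up to 0.129).

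Of the 17 tested cathepsins and lysosomal peptidases, 2 rose and 1 fell, with a median log2 fold change of 0.37 (0.16 without animal 1) beside -0.03 for all tested genes. Ctsz, the carboxypeptidase cathepsin Z, had 1777 to 3270 CPM in GrnKO low, against 356 to 1546 in WT low, and did not pass the test (log2 fold change 0.89, edgeR adjusted p = 0.138). Without animal 1 it did (0.69, edgeR adjusted p = 0.0132). Ctsl, which codes for the progranulin-cleaving protease cathepsin L, did not pass the test either (0.47, edgeR adjusted p = 0.363), nor did Psap, the prosaposin gene whose product binds progranulin (0.29, edgeR adjusted p = 0.701). None of the 11 tested genes on the list of progranulin partners passed. Among the 3 tested cystatins, Cst3, the abundant cystatin C gene, did not pass (log2 fold change 0.08, standard error 0.156, edgeR adjusted p = 0.943). Cstb did not pass either (0.54, edgeR adjusted p = 0.201), but it did without animal 1 (0.72, edgeR adjusted p = 0.00311).

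The vacuolar proton pump, which acidifies lysosomes, had 2 risen subunits among 18 tested, a median log2 fold change of 0.40 and 17 positive values. Atp6v0d2, a d subunit found in macrophages and osteoclasts in place of the common Atp6v0d1, was near 0 in WT low and present in 5 of 6 GrnKO low libraries. Its level was 0.23, 14.7 and 20.4 CPM in GrnKO low, against 0, 0.0173 and 0.432 CPM in WT low. The lone low knockout was animal 12, with 10 counts against 210 to 580 in the other GrnKO low libraries, and 3 WT low libraries had no counts. The fitted log2 fold change of 7.23 (standard error 1.21, edgeR adjusted p = 0.0025) rests on those near-zero WT values. Atp6v1f, the F subunit of the cytosolic ring, had 694 to 1016 CPM in GrnKO low, against 450 to 621 in WT low (log2 fold change 0.72, edgeR adjusted p = 0.0398). Its call was lost without any of animals 3, 4, 5, 7, 10, 11 and 12 (adjusted p up to 0.14). Atp6v0c, the proteolipid ring subunit, and Atp6v1c1 had separate groups and adjusted p-values of 0.0548 and 0.0688 (edgeR). Without animal 1 the pump had 5 called subunits, all higher, with Atp6v0c at 0.73 (adjusted p = 0.00272), Atp6v1c1 at 0.67 (adjusted p = 0.027) and Atp6v1g1 at 0.49 (adjusted p = 0.0187) as the added ones.

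Glycan-degrading enzymes gave 1 called gene of 25 tested, Hpse, which encodes heparanase, the enzyme that cuts heparan sulfate. Hpse had 19.1, 27 and 46.2 CPM in GrnKO low, against 0, 0.196 and 4.5 CPM in WT low. The groups did not overlap, and WT animal 5 was the highest WT low library (log2 fold change 5.57, standard error 1.11, edgeR adjusted p = 0.0155; 0.0729 without animal 3). Fuca1, a lysosomal fucosidase, and Gusb, beta-glucuronidase, had log2 fold changes of 0.92 and 0.55 with edgeR adjusted p-values of 0.0688 and 0.0967. Without animal 1, Fuca1 (0.82, adjusted p = 0.0173), Gusb (0.59, adjusted p = 0.0389) and Gla, alpha-galactosidase (2.15, adjusted p = 0.0394), were called, so the list then had 4 risen members.

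Membrane and soluble lysosomal proteins of other kinds also rose. Cd63, a tetraspanin of late endosomes, was at 6451, 7493 and 8868 CPM in GrnKO low, against 2197, 2615 and 4320 CPM in WT low. The Cd63 groups lay far apart relative to their spread (log2 fold change 1.40, standard error 0.141, edgeR adjusted p = 8.59e-07), while none of the other 12 tested tetraspanins passed the test. Npc2, the lysosomal carrier that hands cholesterol to NPC1, had 1300 to 1635 CPM in GrnKO low, against 401 to 1026 in WT low (0.91, edgeR adjusted p = 0.0258). Gpr137b, a lysosomal membrane protein, had 47.7 to 91.6 CPM in GrnKO low, against 11.3 to 40.2 in WT low (1.54, edgeR adjusted p = 0.028). Creg1, a secreted glycoprotein that is also found in lysosomes, had 852 to 1182 CPM in GrnKO low, against 379 to 708 in WT low (0.75, edgeR adjusted p = 0.0109). All 3 of these had separate groups, but their calls depended on single animals: Npc2 lost its call without any of 9 animals (2, 3, 4, 5, 6, 7, 10, 11 and 12, adjusted p up to 0.118), Gpr137b without any of 7 (2, 4, 5, 6, 7, 9 and 10, up to 0.118) and Creg1 without animal 3 (0.0671). Of the 22 tested lysosomal membrane genes, Cd63 and Gpnmb were the 2 that rose and none fell, and their median log2 fold change was 0.13 (-0.01 with library size alone). Lamp1, a major structural glycoprotein of the lysosomal membrane, did not pass (0.55, edgeR adjusted p = 0.177), and neither did the macrophage marker Cd68 (0.90, edgeR adjusted p = 0.0812), which passed without animal 1 (0.75, adjusted p = 0.0335). Pld3, a lysosomal nuclease that also makes the lipid BMP, had 191 to 434 CPM in GrnKO low, against 8.33 to 167 in WT low (1.73, edgeR adjusted p = 0.0721), and 1.48 without animal 1 (adjusted p = 0.000959).

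A pair of lipid carriers rose. Fabp5, a cytosolic fatty acid binding protein, was at 694, 909 and 1685 CPM in GrnKO low, against 66.3, 141 and 197 CPM in WT low. The lowest knockout was thus over 3 times the highest WT low library (log2 fold change 2.86, standard error 0.195, edgeR adjusted p = 2.82e-10). Apoe encodes apolipoprotein E, which carries cholesterol and phospholipid out of glia. It was at 10837, 17233 and 22423 CPM in GrnKO low, against 2651, 5331 and 10259 CPM in WT low, where animal 9 came close to the lowest knockout, animal 8 (log2 fold change 1.56, standard error 0.237, edgeR adjusted p = 0.000771). These were the 2 called genes among 26 lipid carriers, droplet proteins and targets of the sterol receptor LXR, whose median log2 fold change was 0.08 (-0.03 with library size alone and 0.38 without animal 1). The droplet coat gene Plin2 (0.76, edgeR adjusted p = 0.427) and the cholesterol esterifying enzyme gene Soat1 (0.65, edgeR adjusted p = 0.0959) did not pass, and Soat1 did without animal 1 (0.71, adjusted p = 0.0361). None of 21 tested sterol synthesis genes passed, and their median was 0.00.

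Of 16 tested growth factors and matrix genes, 3 rose (Igf1, Spp1 and Timp2) and none fell, with a median log2 fold change of 0.56. Igf1, insulin-like growth factor 1, was at 65, 109 and 127 CPM in GrnKO low, against 9.7, 18.2 and 24.6 CPM in WT low. The groups did not overlap, with animal 8 the lowest knockout (log2 fold change 2.59, standard error 0.23, edgeR adjusted p = 7.74e-08). Spp1, osteopontin, spread widely in both groups: 972, 1847 and 3574 CPM in GrnKO low, against 354, 561 and 1539 CPM in WT low. For Spp1, 3 of the 6 knockouts lay above every WT low library (log2 fold change 1.52, standard error 0.286, edgeR adjusted p = 0.0086). Timp2, an inhibitor of matrix metalloproteinases, was tight at 997, 1134 and 1261 CPM in GrnKO low, against 174, 457 and 675 CPM in WT low, with no overlap (1.31, edgeR adjusted p = 0.00433). Lgals3 encodes galectin-3, which binds sugars exposed on damaged lysosomes, and had 694, 1031 and 1175 CPM in GrnKO low, against 114, 336 and 415 CPM in WT low. Its groups were separate too (1.66, standard error 0.264, edgeR adjusted p = 0.00141). Wfdc17, a small secreted protein of the whey acidic family, had 477 to 1060 CPM in GrnKO low, against 194 to 450 in WT low (1.31, edgeR adjusted p = 0.00806). Mif, macrophage migration inhibitory factor, had 304 to 663 CPM in GrnKO low and 148 to 318 CPM in WT low, with 1 knockout inside the WT range (1.07, edgeR adjusted p = 0.0209). The Mif call was lost without any of animals 3, 4, 5, 7, 8, 11 and 12 (adjusted p up to 0.0861).

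The chemokines Ccl8 and Cxcl13 moved in opposite directions. Ccl8, a ligand that draws monocytes and T cells, was at 69.1, 196 and 429 CPM in GrnKO low, against 7.02, 30.7 and 69.2 CPM in WT low. The groups touched, since the lowest knockout (animal 12) lay just under the highest WT low library (animal 5) (log2 fold change 2.66, standard error 0.483, edgeR adjusted p = 0.00718). Cxcl13, the ligand of the B cell receptor CXCR5, was at 0.217, 2.88 and 15.4 CPM in GrnKO low, against 5.47, 80.5 and 473 CPM in WT low. Here 4 of the 6 knockouts lay below every WT low library, and WT animal 11 was far above the rest (log2 fold change -4.74, standard error 0.955, edgeR adjusted p = 0.0237). The Cxcl13 call was lost without any of animals 3, 4, 6, 10 and 12 (adjusted p up to 0.129) and in limma-voom (adjusted p = 0.242). Among 23 tested chemokines and cytokines no other gene passed with all libraries. Without animal 1, Cxcl16 was also called (0.64, adjusted p = 0.0176).

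Iron storage genes rose together. Fth1, the ferritin heavy chain, was at 19507, 21841 and 29561 CPM in GrnKO low, against 10358, 11798 and 15908 CPM in WT low, with no overlap (log2 fold change 0.90, standard error 0.118, edgeR adjusted p = 8.63e-05). Ftl1, the ferritin light chain, was at 4335, 5843 and 6221 CPM in GrnKO low, against 1742, 3170 and 3805 CPM in WT low, also with no overlap (0.86, standard error 0.161, edgeR adjusted p = 0.00807). Ftl1-ps1, a retrogene copy of Ftl1, rose by 1.22 (edgeR adjusted p = 0.000771), but near-identical copies share reads, so the split between Ftl1 and Ftl1-ps1 is uncertain. Fth1 and Ftl1 were the 2 called genes of 16 tested in iron handling, whose median log2 fold change was -0.01 (0.02 with the deposited library sizes and factors, and 0.13 without animal 1). The iron chaperone genes Pcbp1 (-0.74, edgeR adjusted p = 0.182) and Pcbp2 (-0.78, edgeR adjusted p = 0.314) and the transferrin gene Trf (0.38, edgeR adjusted p = 0.527) did not pass.

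Redox and metabolic enzymes gave 1 or 2 called members per list. Gpx3, the secreted glutathione peroxidase, was at 126, 190 and 247 CPM in GrnKO low, against 0.455, 11.7 and 22.9 CPM in WT low, with every knockout over 5 times the highest WT low library (log2 fold change 4.04, standard error 0.67, edgeR adjusted p = 0.00358). Prdx4, the peroxiredoxin of the endoplasmic reticulum whose promoter is printed above, was at 182 to 309 CPM in GrnKO low, against 96.6 to 178 in WT low (1.02, edgeR adjusted p = 0.00807; 0.0511 without animal 4). These were the 2 called genes of 22 antioxidant enzymes, and Gpx1 (0.41, edgeR adjusted p = 0.483) and Prdx1 (0.33, edgeR adjusted p = 0.564) did not pass. Cyba, the p22phox subunit of the phagocyte oxidase, had 577 to 928 CPM in GrnKO low, against 144 to 450 in WT low (1.01, edgeR adjusted p = 0.0155), and lost its call without any of animals 3, 4, 11 and 12 (up to 0.0941). Akr1a1, an aldehyde reductase, had 520 to 663 CPM in GrnKO low, against 220 to 378 in WT low (0.96, edgeR adjusted p = 0.0086). Cox6a2, a heart and muscle isoform of a cytochrome oxidase subunit, was at 187, 333 and 530 CPM in GrnKO low, against 64.3, 106 and 167 CPM in WT low, with no overlap (1.68, standard error 0.277, edgeR adjusted p = 0.00205).

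Pkm, the glycolytic pyruvate kinase gene, was at 225, 381 and 514 CPM in GrnKO low, against 98.5, 133 and 184 CPM in WT low, and its groups did not overlap (1.39, standard error 0.25, edgeR adjusted p = 0.00577). It was the 1 called gene among 21 tested in glycolysis, where the median was 0.53 and 17 values were positive. Pgam1 (1.13), Aldoa (0.95) and Tpi1 (1.08), enzymes of the middle steps, had edgeR adjusted p-values of 0.0525, 0.0539 and 0.0892. All 3 were called without animal 1, at 0.94 (adjusted p = 0.00386), 0.87 (0.0322) and 0.95 (0.0173). Of 29 tested nuclear genes of oxidative phosphorylation, Cox6a2 was the 1 called, and the median was 0.29. None of the 13 mitochondrially encoded genes was called; their median was -0.54 with all libraries and -0.05 without animal 1, the library with 9.70% mitochondrial counts.

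Signalling adaptors of the receptor TREM2 rose, while the receptor lay near the threshold. Tyrobp encodes DAP12, the adaptor through which TREM2 signals, and was at 5139, 7771 and 11488 CPM in GrnKO low, against 3560, 4057 and 4589 CPM in WT low. Hcst, the related adaptor DAP10, was at 124, 168 and 212 CPM in GrnKO low, against 67.5, 77.4 and 106 CPM in WT low. Neither gene's groups overlapped; the log2 fold changes were 1.00 for Tyrobp (edgeR adjusted p = 0.0156) and 1.04 for Hcst (edgeR adjusted p = 0.0109). Trem2 had 2584, 2944 and 4197 CPM in GrnKO low, against 833, 1922 and 2187 CPM in WT low, where animal 1 was the low value (0.80, edgeR adjusted p = 0.0548, and 0.66 with adjusted p = 0.00915 without animal 1). The call of Tyrobp was lost without any of animals 3, 4, 11 and 12 (up to 0.082) and that of Hcst without animal 4 (0.0529). Of 16 tested genes of this pathway, the 2 adaptors were the called ones, and Fcer1g, the Fc receptor gamma chain (0.69, edgeR adjusted p = 0.128), and Clec7a, a beta-glucan receptor (0.58, edgeR adjusted p = 0.233), were not.

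The remaining risen genes have roles outside these groups or no settled role in microglia. Syngr1, a synaptogyrin of small vesicles, was at 2557, 3342 and 4330 CPM in GrnKO low, against 659, 1330 and 1539 CPM in WT low, and its groups were well apart (log2 fold change 1.45, standard error 0.19, edgeR adjusted p = 8.63e-05). Gng12, a G protein gamma subunit, had 96.2 to 142 CPM in GrnKO low, against 48.4 to 75.8 in WT low (0.82, edgeR adjusted p = 0.0156). Ssr4, a subunit of the translocon-associated complex, had 577 to 1060 CPM in GrnKO low, against 341 to 500 in WT low (0.78, edgeR adjusted p = 0.0381). Psmb6, a catalytic subunit of the proteasome, had 420 to 562 CPM in GrnKO low, against 270 to 432 in WT low, with 1 knockout inside the WT range (0.63, edgeR adjusted p = 0.0381). These last 3 depended on single animals: Gng12 lost its call without any of animals 4, 5, 6 and 7 (up to 0.0831), Ssr4 without any of 3, 4, 5, 6, 8, 11 and 12 (up to 0.145) and Psmb6 without any of 3, 4, 5, 6, 8, 9, 10, 11 and 12 (up to 0.117). Gm1673, a predicted gene outside the rule for named genes and given because it is the only called gene left out by it, had 94.6 to 172 CPM in GrnKO low, against 4.51 to 90.9 in WT low (3.16, edgeR adjusted p = 0.00141). The highest WT value was that of animal 1, and without it WT low reached 17.3 CPM (4.08, adjusted p = 8.91e-09).

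A pair of risen genes was near 0 in every WT low library and uneven in GrnKO low. Creg2, a secreted relative of Creg1, had 0, 2.09 and 10.6 CPM in GrnKO low, against 0, 0 and 0.027 CPM in WT low. Animals 4, 6 and 12 held 150 to 240 counts of Creg2 and the other 3 knockouts 0 to 6. Its fitted log2 fold change of 8.66 (edgeR adjusted p = 0.0432) lost the call without any of animals 1, 3, 4, 5, 6, 7, 9, 11 and 12 (up to 0.129) and in limma-voom (adjusted p = 0.108). Rptoros, a transcript antisense to Rptor, had no count in any WT low library and 1 to 320 counts in GrnKO low libraries. Against a floor of 3 counts over all WT low libraries its mean of 2.81 CPM in GrnKO low was at least 169-fold higher (edgeR adjusted p = 0.0245), and the call was lost without any of animals 2, 3, 4, 5, 9, 11 and 12 (up to 0.0742) and in limma-voom (adjusted p = 0.0907). No source used here states whether counting used strand, so reads of Rptoros and of Rptor, which had a log2 fold change of 0.07 (edgeR adjusted p = 0.987), could not be separated with certainty.

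Of the other 5 genes that fell, 4 are described here. Smarca2, the BRM ATPase of the SWI/SNF chromatin remodelling complex, was at 8.25, 22.3 and 34.1 CPM in GrnKO low, against 38.6, 65 and 72.9 CPM in WT low. Filip1l, a coiled-coil protein related to filamin A binding proteins, was at 6.07, 16.6 and 21 CPM in GrnKO low, against 29.7, 45.1 and 65.7 CPM in WT low. Both had separate groups (log2 fold change -1.54, standard error 0.304, edgeR adjusted p = 0.0136 for Smarca2, and -1.58, standard error 0.308, edgeR adjusted p = 0.012 for Filip1l). Zfp36l2, an RNA-binding protein that promotes decay of AU-rich transcripts, was at 68, 79.6 and 126 CPM in GrnKO low, against 135, 192 and 333 CPM in WT low (-1.21, edgeR adjusted p = 0.0312). Elmo1, which links engulfment receptors to Rac, was at 39.2, 59.9 and 82.4 CPM in GrnKO low, against 79.6, 117 and 132 CPM in WT low. For Zfp36l2 every knockout lay below every WT low library, while for Elmo1 1 knockout (animal 8) lay inside the WT range (-0.85, edgeR adjusted p = 0.0112). All 4 depended on single animals: Smarca2 and Elmo1 lost their calls without animal 3 or 12 (up to 0.0571 and 0.0568), Filip1l without 5 or 7 (up to 0.0568) and Zfp36l2 without any of 3, 4, 6, 9, 10 and 12 (up to 0.131).

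**Figure D2:**
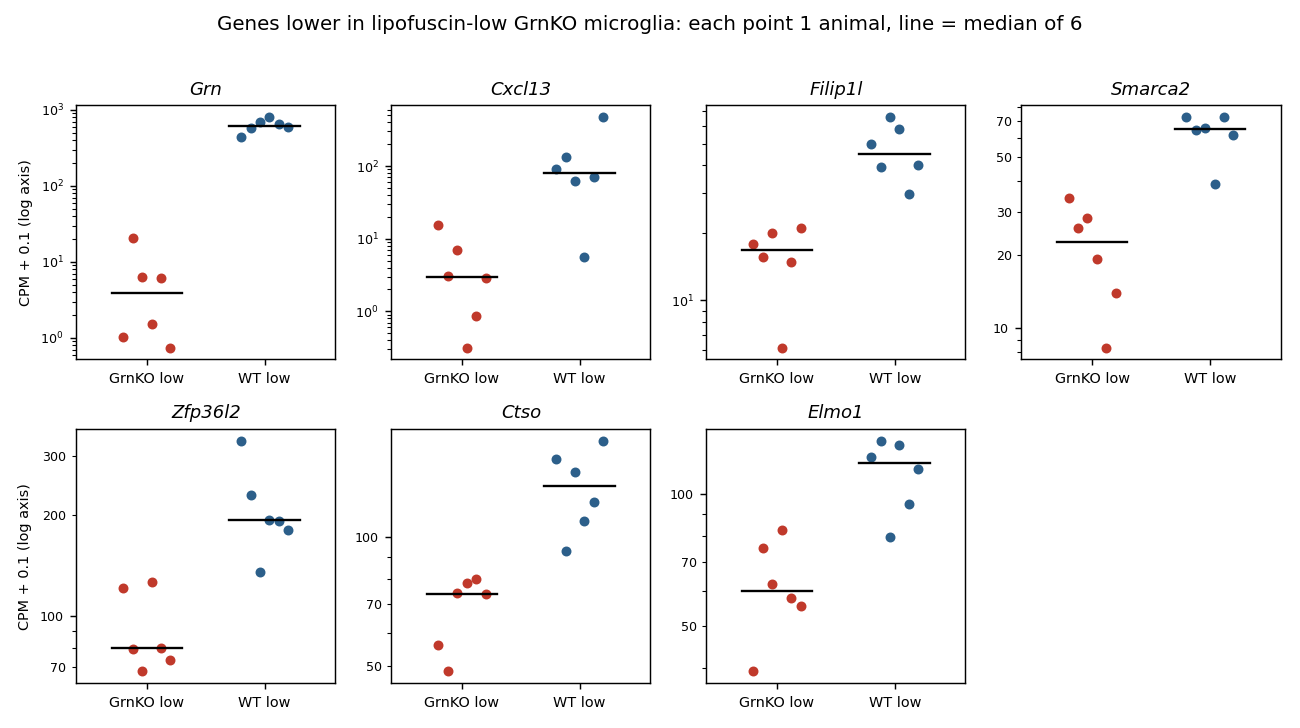
Levels of 7 of the 8 genes that fell in lipofuscin-low GrnKO microglia. Each point is 1 animal (n = 6 per group), the vertical axis is CPM + 0.1 on a log scale and the black line is the group median; the GrnKO low and WT low points are separate in every panel except Cxcl13 and Elmo1, and Grn stays at or under 20.3 CPM in GrnKO low.

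Gene lists were described by counts and medians, and they were chosen with earlier results of these data known. On the list of disease-associated microglia, 12 of 32 tested genes rose and none fell. Over all tested genes 38 of 14090 rose (0.27%), and over those of at least 10 CPM 36 of 8073 rose. Risen genes had a median of 702 CPM in the higher group, against 13.5 CPM for all tested genes. On that list 30 values were positive, and the median log2 fold change was 0.81, beside -0.03 for all tested genes (6794 positive and 7296 negative). The 12 that rose were Apoe, Cd63, Cst7, Ctsb, Ctsd, Fabp5, Gpnmb, Igf1, Lgals3, Spp1, Timp2 and Tyrobp. Without animal 1 the count was 15, with Cd68, Ctsz and Trem2 added, and the median was 0.69. On the list of homeostatic microglia, 1 gene fell and none of the other 29 passed, with a median of -0.23 and 21 negative values. Tgfbr1, the type I receptor through which TGF-beta maintains microglia, had 425 to 650 CPM in GrnKO low, against 692 to 876 in WT low, which did not overlap (-0.55, edgeR adjusted p = 0.0522, and -0.54 with adjusted p = 0.026 without animal 1). Slco2b1, an organic anion transporter, likewise had separate groups (-0.67, edgeR adjusted p = 0.104). Of 20 transcription factors and remodellers, Smarca2 fell and none rose, and Sall1, a factor that defines microglia, had a log2 fold change of -0.67 (edgeR adjusted p = 0.428). In the list of immediate-early and stress genes, Zfp36l2 was the 1 that fell of 24, with a median of -0.29. Without animal 1, Btg2 was also called lower (-1.02, edgeR adjusted p = 0.00344), and the median was -0.20. Egr1, an early growth response factor, had 13 to 38.5 CPM in GrnKO low, against 43.2 to 121 in WT low (-1.70, edgeR adjusted p = 0.0552), in tissue dissociated with inhibitors of transcription and translation.

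Other lists held few or no calls. None of 37 cytosolic ribosomal protein genes was called although 36 values were positive (median 0.39), and Rpl19 (0.60) and Rpl8 (0.69) had separate groups with edgeR adjusted p-values of 0.0569 and 0.0616. Without animal 1, 5 were called, all higher. None of 31 genes of autophagy and the TFEB axis passed (median 0.14), among them the cargo receptor Sqstm1 (0.80, edgeR adjusted p = 0.314) and Map1lc3b, which encodes the autophagosome protein LC3B (0.46, edgeR adjusted p = 0.206). No gene passed among 15 of complement (median 0.40, and 0.24 without animal 1), 13 of MHC class I (0.39), 10 of MHC class II (-0.03), 20 of the type I interferon response (-0.26), 16 of the inflammasome and NF-kB (-0.05), 8 of the Ms4a family (-0.02) and 22 of the cell cycle (0.78). Single complement members were C1qa (0.65, edgeR adjusted p = 0.138) and C1qb (0.48, edgeR adjusted p = 0.269), subunits of C1q that microglia supply. In the cell cycle list 21 values were positive, and the median was 0.69 without animal 1. Its member Top2a, a topoisomerase of dividing cells, was low and uneven, with 0.769 to 30.2 CPM in GrnKO low, against 0.0322 to 5.13 in WT low. The log2 fold change of Top2a was 2.21 (standard error 0.982, edgeR adjusted p = 0.422).

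**Figure D3:**
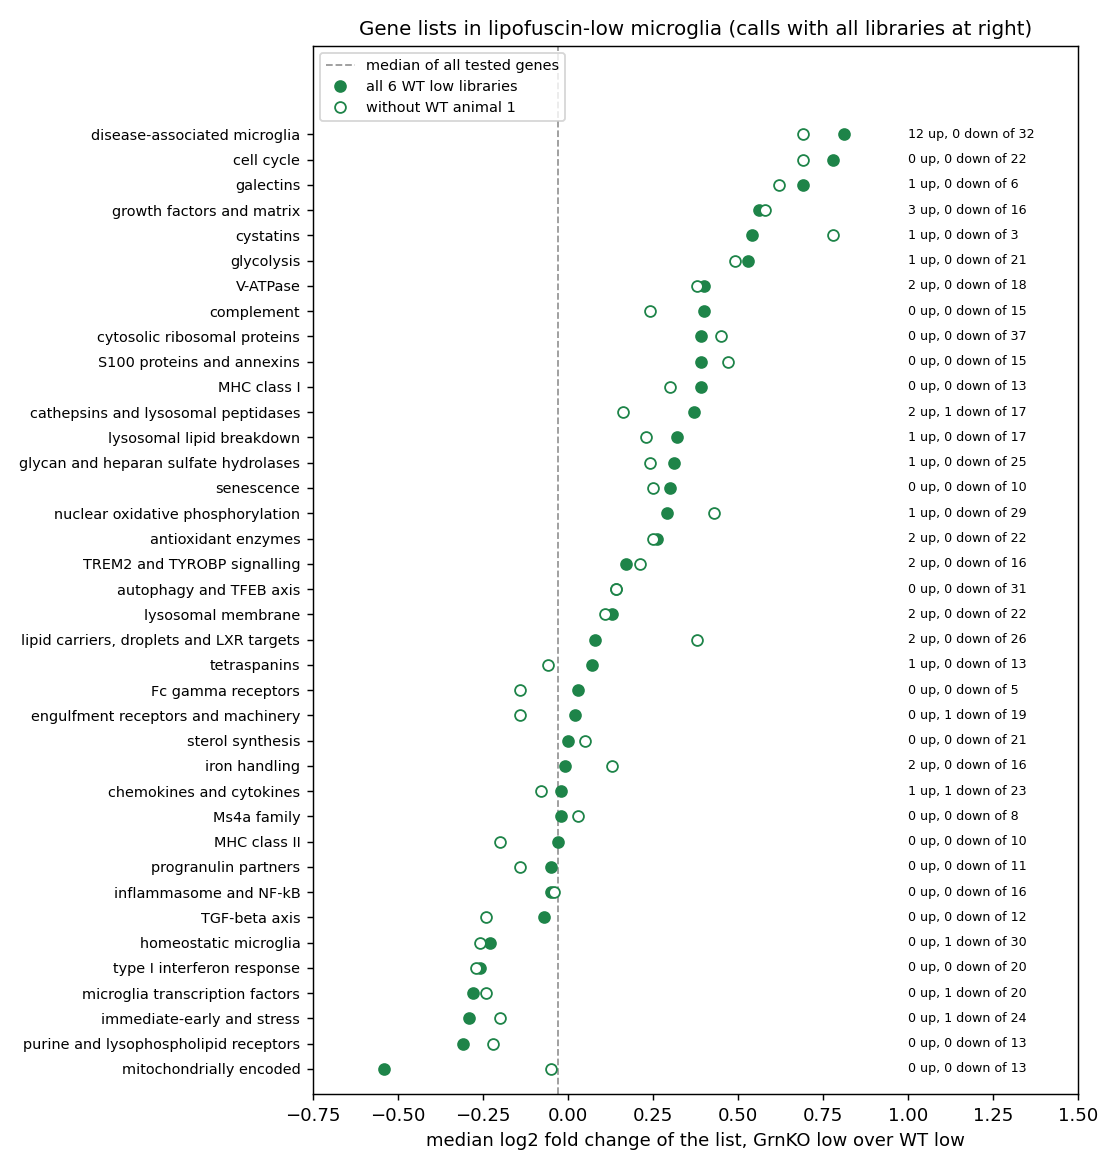
Median log2 fold change of 38 gene lists, GrnKO low over WT low, with all libraries (filled) and without WT animal 1 (open). The numbers at the right are genes called with all libraries out of those tested, and the dashed line is the median of all tested genes (-0.03). With all libraries the list of disease-associated microglia is the highest at 0.81, next to cell cycle at 0.78 with 0 called. Without animal 1 it is 0.69, level with cell cycle (0.69) and below cystatins (0.78). The list of mitochondrially encoded genes is -0.54 with all libraries and -0.05 without animal 1.

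Summed levels of markers of other cells differed between the groups in some lists, and their part in the results was not tested. The summed level of 5 erythrocyte markers was 54.5, 9317 and 37593 CPM in GrnKO low, against 4.68, 9.5 and 37.8 CPM in WT low, so that every GrnKO low library lay above every WT low library. None of the 5 haemoglobin and haem genes passed the test, and Hba-a2 had 21.4 to 14284 CPM in GrnKO low, against 1.71 to 31.8 in WT low (edgeR adjusted p = 0.145). The 15 T and NK cell markers summed to 484, 848 and 1276 CPM in GrnKO low, against 110, 338 and 640 CPM in WT low, and 13 of them had the higher mean in GrnKO low. The 10 neutrophil markers summed to 4262, 10018 and 31846 CPM in GrnKO low, against 1646, 5439 and 22124 CPM in WT low. Astrocyte markers were the other way round, at 179, 279 and 447 CPM in GrnKO low, against 332, 486 and 1687 CPM in WT low (332 to 1085 CPM without animal 1). With animal 1 included, 11 of 12 astrocyte means were lower in GrnKO low. Border-associated macrophage markers summed to 190, 275 and 352 CPM in GrnKO low, against 245, 334 and 383 CPM in WT low. Pericyte and smooth muscle markers summed to 0.619, 31.1 and 54.7 CPM in GrnKO low, against 18.3, 164 and 553 CPM in WT low (18.3 to 270 CPM without animal 1). With animal 1 included, all 8 of these markers had the lower mean in GrnKO low. Among them Acta2, smooth muscle actin, had 0 to 1.31 CPM in GrnKO low, against 1.43 to 225 in WT low, with no overlap (edgeR adjusted p = 0.0614). Choroid plexus and ependymal markers were carried by a few libraries, at 28909 CPM in GrnKO animal 8, against 26057 CPM in WT animal 1 and 82974 CPM in WT animal 9, while the other 9 low libraries had 22 to 1692 CPM. B cell markers reached 16752 CPM in GrnKO animal 2. No marker of the 14 lists was at 0 in all 12 libraries, and none of the tested markers was called. With the haemoglobin and mitochondrially encoded genes left out before scaling, 57 genes were called, all 46 among them. Without the 9 libraries high in erythrocyte markers, which leaves 2 GrnKO low libraries, 12 genes were called, 10 of them among the 46. Without the 4 libraries high in choroid plexus markers, 120 were called, 39 of them among the 46.

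**Figure D4:**
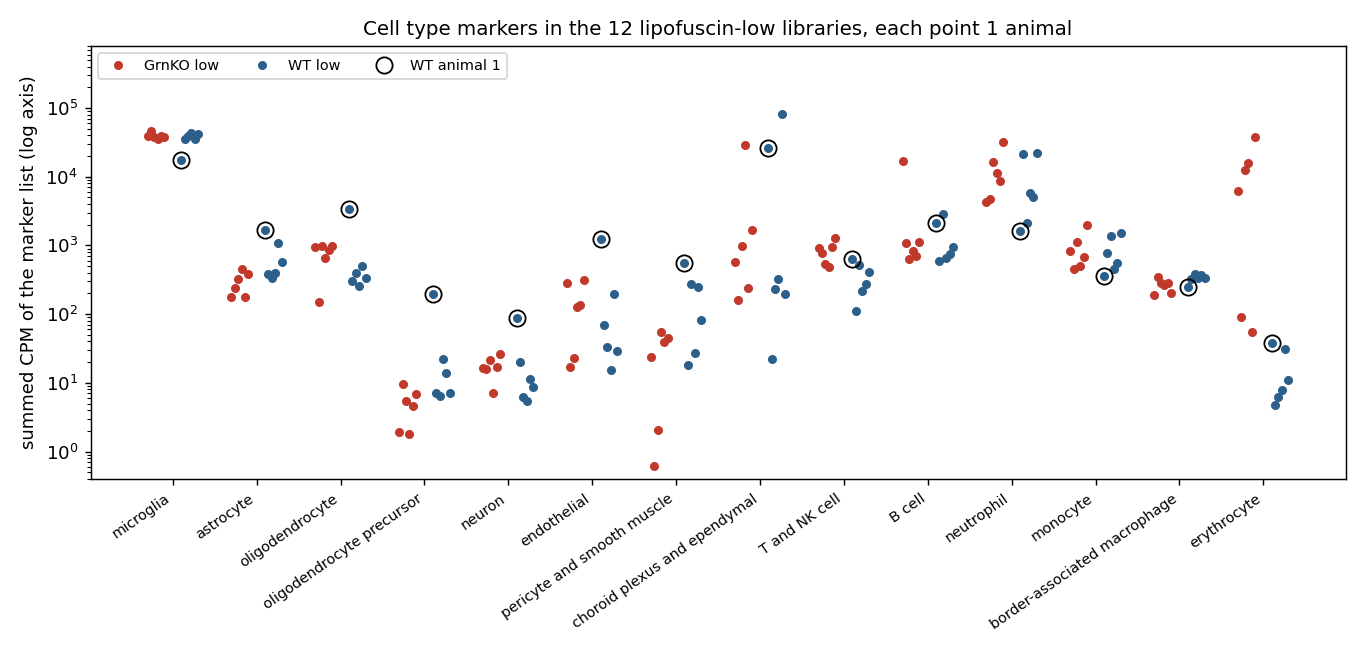
Summed CPM of the markers of 14 cell types in the 12 lipofuscin-low libraries, on a log axis, with 1 point per animal (6 GrnKO low to the left of 6 WT low in each pair, WT animal 1 circled). Microglia markers lie between 35732 and 45673 CPM in GrnKO low, WT animal 1 is lowest among WT low at 17423 CPM, and erythrocyte markers do not overlap between the groups.

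The 46 genes were then read in the high bin of the same animals, where cells had more autofluorescence. All 38 risen genes had a positive log2 fold change there and 14 were called, and all 8 fallen genes had a negative one and 2 were called (Grn and Cxcl13), out of 19 higher (0.135%) and 4 lower (0.0284%) called in that bin. The median log2 fold change of the 38 was 1.39 in the low bin and 0.83 in the high bin, and that of the 8 was -1.38 in the low bin and -0.48 in the high bin. The members were selected on the low bin, so a smaller value in the high bin is a description and not a test. The shared signs are a description too, because the same animals gave both bins and any difference between animals is carried over. The share of all tested genes with the same sign in both bins is not given here. The difference of the genotype effect between bins was tested for each gene, and by edgeR 0 of 14090 genes passed (0%), while 738 had an unadjusted p under 0.05. That edgeR model had no term for the animal, so it treated the low and high libraries of an animal as independent. DESeq2 called 71 genes and limma-voom 1, Il1r1, an interleukin-1 receptor with few counts. Its medians were 0.0567 CPM in GrnKO low and 2.16 CPM in WT low. In the high bin they were 3.36 CPM in GrnKO high and 0.0282 CPM in WT high. The edgeR log2 fold change of Il1r1 thus had opposite signs, -5.06 in the low bin and 4.01 in the high bin. The smallest edgeR p was that of Igf1, with a log2 fold change of 2.59 in the low bin and 1.23 in the high one (difference 1.37, edgeR adjusted p = 0.786). Across alternatives its adjusted p ran between 0.00385 in the DESeq2 test and 0.976 in the fit restricted to genes of at least 10 CPM. Spp1 (1.52 in the low bin, 0.26 in the high bin) and Ccl8 (2.66 and 0.68) were called in the low bin and not in the high bin, and the test of that difference passed for neither.

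**Figure D5:**
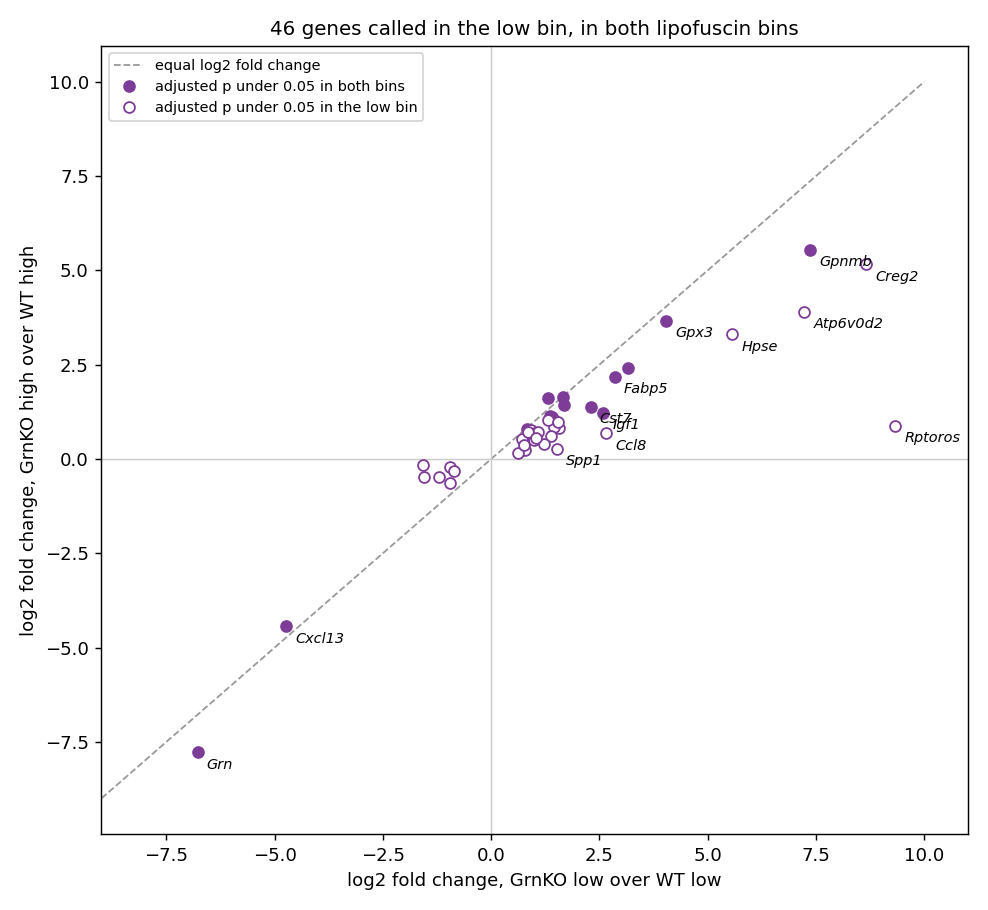
Log2 fold changes of the 46 called genes, GrnKO low over WT low on the horizontal and GrnKO high over WT high on the vertical axis. Filled points were called in both bins and open points in the low bin; all 46 have the same sign in both, and most risen genes lie below the dashed line of equal change.

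The genotype effect in the low bin was also compared between animals labelled male and animals labelled female, 3 against 3 in each. By edgeR 2 of 14090 genes passed (0.0142%), Fcgr2b and Abhd12, and neither was called in the pooled comparison. Fcgr2b, the inhibitory Fc gamma receptor, was at 607, 650 and 852 CPM in labelled male GrnKO low, against 142, 174 and 200 CPM in labelled male WT low. In animals labelled female it was at 160, 177 and 189 CPM in GrnKO low, against 679, 947 and 1063 CPM in WT low. The effect thus had opposite signs, 2.03 and -2.35, and the difference was 4.39 (standard error 0.33, edgeR adjusted p = 4.55e-08). In GrnKO high libraries of the same animals, Fcgr2b was at 224 to 301 CPM (labelled male) and 957 to 1004 CPM (labelled female). WT high libraries had 452 to 817 CPM (labelled male) and 899 to 1104 CPM (labelled female). Abhd12, a lysophosphatidylserine lipase, was at 53.2, 85.2 and 93.4 CPM in labelled male GrnKO low, against 3.46, 5.91 and 14.8 CPM in labelled male WT low. In animals labelled female it was at 7.83, 10.4 and 21.2 CPM in GrnKO low, against 38.6, 50 and 78.1 CPM in WT low (difference 5.33, standard error 0.677, edgeR adjusted p = 0.000417). Within each labelled sex the GrnKO low and WT low animals did not overlap in either gene. Abhd12 in GrnKO high was at 13.2 to 18.4 CPM (labelled male) and 62.7 to 127 CPM (labelled female). WT high libraries had 203 to 511 CPM of Abhd12 (labelled male) and 199 to 223 CPM (labelled female). For both genes the order of the labelled sexes in GrnKO was thus reversed between the bins of the same animals. Library names in the labels run in one sequence in which the 8 combinations of genotype, labelled sex and bin recur in the same order in each of 3 rounds, so place in that order and combination cannot be told apart. For Fcgr2b the adjusted p stayed at or below 0.00234 over 24 alternatives, while Abhd12 lost its call without the libraries high in erythrocyte markers (0.741), with the low libraries alone (0.121) and in limma-voom (0.113, and 0.103 with the animal as a block).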

How the data were processed

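RNA of 24 libraries of sorted microglia was sequenced as single-end reads after SMARTSeq v4 3′ DE cDNA synthesis and Nextera XT library preparation, per the labels' protocols. The submitters' processing notes name STAR 2.7.9a, Salmon 1.10.1, edgeR 4.6.2, R 4.5.1 and build GRCm39. The authors deposited estimated counts per gene with 2 significant digits, a normalized signal table, and a library size and normalization factor (a ratio) per library. Columns that matched no sample numbered 0. The signal table served only as a check, and 100% of its entries with over 50 deposited counts differed by at most 7 percent from counts rescaled by the deposited sizes and factors. The tests had been planned for counts, so rounding to whole numbers was applied to the deposited estimated counts first, on top of the rounding by the authors.

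Of 56980 genes, filterByExpr removed 42890. A quasi-likelihood model (edgeR 4.0.16, limma 3.58.1, R 4.3.3, TMM scaling, robust glmQLFit, glmQLFTest, 2-sided) was fitted over the 24 libraries, with terms for the 4 groups and the labelled sex. A gene was called at an adjusted p under 0.05 (Benjamini-Hochberg, over all tested genes), and the standard error of a log2 fold change was its size divided by the square root of F. The common biological coefficient of variation was 1.08. Levels are CPM on TMM-scaled library sizes. The labelled-sex difference was fitted with 8 groups of 3. DESeq2 1.42.0 and limma-voom served as alternatives. The edgeR fit of the low-bin comparison was also run on simulated counts, drawn without animal pairs or outlying libraries. The outcome of that run is not reported here and no result rests on it. Reads carried no molecular identifiers, so count floors (3 counts) cover counting error only. Libraries share an animal across bins, not across genotypes. The consensus correlation of an animal's pair of libraries (pairing: the animal id in the labels) was 0.0872. Plots were made in Python 3.11.15 with matplotlib 3.10.9.

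The comparison, the 38 gene lists, the 14 marker lists and the tests were chosen with earlier results of these data known. The text names Grn, every called gene with a unique symbol other than clone, predicted or Riken names, members of each list with the smallest p that were not called, genes called in the difference tests, the top markers and the neighbours of Grn; some that the rule selects are not reported here. Gm1673, Rptor, Il1r1 and the genes added without animal 1 were named after their values were seen. Promoters are from RefSeq (31 of 38 risen and 6 of 8 fallen genes matched). No genome of the build used by the authors was used here, so no coordinates are given for genes.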

Additional observations from a re-analysis of the deposited data

Results flagged for a closer look

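Groups of 6 libraries were taken by genotype for the called genes and a chosen part of the other named genes. Of 194 such groups, 29 had a library that stood apart from the other 5 by Dixon's criterion on CPM (gap over range above 0.625). That criterion flags about 1 group in 20 for independent, normally distributed values. CPM near 0 is skewed and genes of a library are not independent, so the 29 cannot be set against that rate. For Creg2 in WT low, 1 count (0.027 CPM) gave a flag. WT animal 1 was the library that stood apart in 12 of the 29 groups. It was the lowest WT low library for Ssr4 (341 CPM), Cyba (144 CPM), Lgals3 (114 CPM), Trem2 (833 CPM), Ctsz (356 CPM), C1qa (333 CPM), C1qb (3182 CPM) and Cxcl16 (60.6 CPM). It was the highest for Gm1673 (90.9 CPM), Cstb (735 CPM), Colec12 (1.14 CPM) and mt-Nd3 (492 CPM).

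Other WT low libraries stood apart for single genes. Animal 9 was high for Prdx4 (178 CPM), Atp6v0d2 (0.432 CPM), Creg2 (0.027 CPM) and Aldoa (405 CPM), animal 5 was high for Hpse (4.5 CPM) and Gm2a (277 CPM), animal 11 was high for Cxcl13 (473 CPM) and animal 7 was low for Smarca2 (38.6 CPM). In GrnKO low, animal 4 was the highest for Grn (20.3 CPM), Ctsz (3270 CPM) and C1qb (11930 CPM). Animal 2 was the highest for Gpnmb (514 CPM) and Gjc1 (2.66 CPM), animal 6 for Gng12 (142 CPM) and Bhlhe40 (18.3 CPM), animal 8 for Trim30a (104 CPM) and animal 12 for Wfdc17 (1060 CPM).

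The genotype effect differed between animals labelled male and labelled female for 2 genes, by a test of the difference itself. It was 4.39 for Fcgr2b (labelled male 2.03, labelled female -2.35, edgeR adjusted p = 4.55e-08) and 5.33 for Abhd12 (labelled male 3.25, labelled female -2.08, edgeR adjusted p = 0.000417). In GrnKO the order of the labelled sexes was reversed in the high bin for both genes.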

How the results depend on the processing

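The 46 calls of the genotype comparison became 313 with no filter on low counts, 78 with at least 10 CPM in 6 libraries, 358 in the DESeq2 test, 120 without the libraries high in choroid plexus markers, 12 without those high in erythrocyte markers, 21 with the low libraries alone, and 30 to 116 when each animal was left out in turn (lowest without animal 4, highest without animal 1). The cause was not tested, and the erythrocyte and low-only fits also held fewer samples. Of the 46, 24 were called in each of the 12 fits that left out an animal. The animal as a replicate block in limma-voom gave 67 calls, against 65 with no block, and among the named genes it changed 1 call, that of Aldoa (limma-voom adjusted p = 0.0473 with the block and 0.0501 without). The bin difference, 0 in edgeR, gave 329 with no filter, 71 in DESeq2, 1 in limma-voom without and 1 with the replicate block, and 0 to 0 without single animals. The labelled-sex difference, 2 in edgeR, gave 330 with no filter, 502 in DESeq2, 1 without the libraries high in erythrocyte markers, 1 with the low libraries alone, and 2 to 30 without single animals (30 without animal 5), and 2 in limma-voom with and without the block, of which 1 was shared with the 2 in edgeR. A further count covered 101 results, from the called genes, a chosen part of the other named genes and the difference tests. Of their alternative values, 2139 kept direction and side of the threshold, 203 no longer passed, 168 newly passed and 0 changed sign. Some named genes with small changes, such as Cst3, Gpx1 and Sall1, were not in that count. The spread between 6 animals limits small changes, and values near 0 CPM carry few counts.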
